A study of Mus musculus with 8 samples.

Results

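The Bcl2 family is the set of related proteins that decides, at the outer membrane of the mitochondrion, whether a cell enters apoptosis. The 10 genes described here were chosen by symbol from the deposited gene table and comprise 3 anti-apoptotic members (Bcl2, Bcl2l1, Mcl1), 3 pore-forming effectors (Bax, Bak1, Bok) and 4 members that carry the BH3 domain alone (Bid, Bad, Bbc3, Bcl2l11). All 10 were found among the 17258 genes of the table, and all 10 passed the level filter of a mean of at least 10 that is used below. The samples were seminal vesicles of male outbred Swiss mice aged 8 to 12 weeks. In the acrylamide group, 4 mice received acrylamide by intra-peritoneal injection at 25 mg/kg body weight on 5 successive mornings, and in the control group 4 mice received phosphate buffered saline (PBS) in the same way. Tissue of both groups was taken 72 h after the last dose, with the prostate dissected off and the fluid pressed out, and its poly(A) RNA was sequenced. Acrylamide is a small reactive compound formed when starchy food is heated, and is known as a reproductive toxicant in males.

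In a living cell the anti-apoptotic members hold the effectors Bax and Bak1 in check. BH3-only members are the sensors: they bind the anti-apoptotic members or the effectors when growth factors are withdrawn, DNA is damaged or a death receptor is engaged, and the effectors then open the outer membrane so that cytochrome c reaches the cytosol and caspases are activated. Much of this control acts on the proteins, by phosphorylation, cleavage and turnover, which RNA levels do not show. In male accessory glands, which depend on androgen, apoptosis of the epithelium is known to follow androgen withdrawal.

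The table holds 1 value per gene and group, in normalised reads, that is, reads divided by a size factor that brings the libraries to a common scale. Whole reads per library were recovered from the digits of these values for 9007 genes, including 8 of the 10 members. Bcl2l1 and Mcl1 had too many reads to be resolved and are given by their group values. The group value is a fitted one and can differ slightly from the mean of the reads. Libraries are numbered within each group by their size factor, from the largest to the smallest, because they cannot be matched to the mice as labelled. Size factors were 1.03 to 1.11 in acrylamide and 0.886 to 1.02 in control libraries, so they did not overlap between groups, and their part in the ratios was not tested. The group totals were 27433231 normalised reads for acrylamide and 30956651 for control, of which the 7 Svs genes (the main secreted proteins of the gland) held 62.1% and 65.0%. The tissue carried the markers of its epithelium, with 7192.74 normalised reads of Krt18 in acrylamide and 8035.51 in control tissue besides the Svs genes. As deposited, 6 of 7 epithelial markers had a ratio of acrylamide to control below 1 (median log2 ratio -0.21), with Cdh1 the exception. When scaled to the total over all genes, 4 stayed below 1, namely Krt8 and the secreted Svs2, Svs4 and Svs5. All 3 markers of basal epithelium went the other way, with a ratio above 1 under each scaling (median log2 ratio 0.13 as deposited). All 5 smooth muscle markers had a ratio above 1 under each scaling (median log2 ratio 0.29 as deposited, with a ratio of 1.32 for Myh11), and 3 of 5 fibroblast markers had one as deposited (Col1a1 at 1.48), or 5 of 5 when scaled to the total over all genes. All 4 endothelial and all 4 macrophage markers had a ratio above 1 under each scaling. These are group values with no spread between mice where reads were not recovered, and the part of the tissue's makeup in the ratios of the members was not tested. Transcripts of prostate type were present too, with 10922.2 normalised reads of Pbsn in acrylamide and 12106.9 in control tissue.

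No member passed a fold of 1.5 between the groups (0 of 10), against 5.08% of the 13002 genes with a mean of at least 10 and 2.14% of the 9480 genes with levels between those of the lowest and the highest member. Ratios of acrylamide to control lay between 0.821 for Bad and 1.36 for Bcl2. As deposited, the ratio was above 1 in 4 members and below 1 in 6 (49.9% of all 13002 genes were below 1), a split that became 9 above and 1 below when the groups were scaled to the total over all genes, which moves every log2 ratio by 0.17. The median log2 ratio of the members was -0.05, against 0.00019 for all 13002 genes. In absolute size the median log2 ratio was 0.10 for the members and 0.11 for the 9480 genes of that range. Since the tissue was sequenced in bulk, fewer cells of a type and less RNA per cell cannot be told apart in any of these values.

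**Figure D1:**
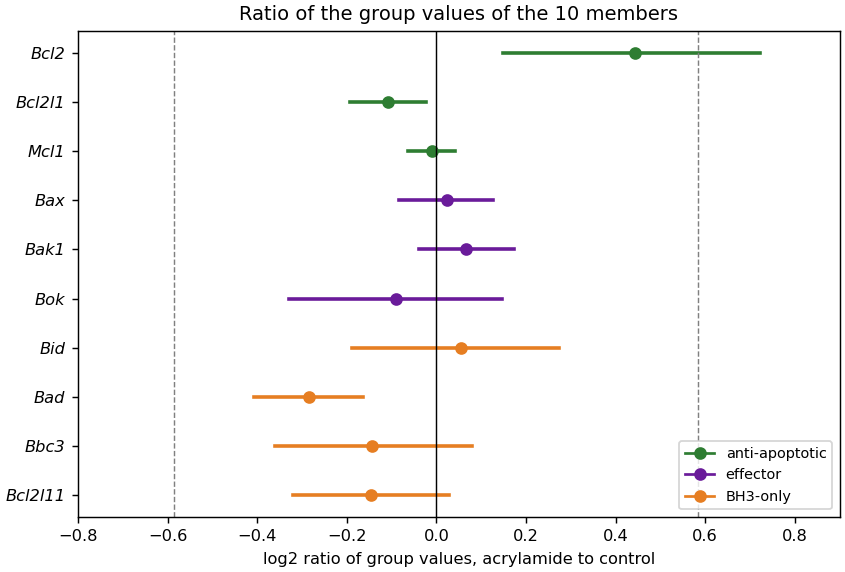
Log2 ratio of the group values of acrylamide to control (horizontal axis) for each of the 10 members, coloured by role, with 95% intervals that cover counting error only and dashed lines at a fold of 1.5. Every point lies between the dashed lines, from -0.28 for Bad to 0.44 for Bcl2, and the intervals of Bcl2, Bcl2l1 and Bad exclude 0.

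The members differed widely in abundance. Divided by the length of the longest protein-coding transcript, Mcl1 was the most abundant member, with 412.8 normalised reads per kilobase in acrylamide and 416.0 in control tissue. Bax followed with 336.3 per kilobase in acrylamide and 330.9 in control tissue, then Bcl2l1 with 210.2 in acrylamide and 226.6 in control tissue. At the other end stood Bcl2, the founding member of the family, with 8.36 per kilobase in acrylamide and 6.15 in control tissue. Between them came, in falling order, Bad, Bak1, Bok, Bbc3, Bid and Bcl2l11, and the order was the same in both groups. Among neighbours in this order, the levels per kilobase of Bad (140.0 to 212.8 over the 8 libraries) and Bak1 (133.3 to 181.0) overlapped between libraries. The ranges of Bok (34.9 to 59.8), Bbc3 (30.1 to 66.3) and Bid (21.4 to 53.7) likewise overlapped, as did those of Bid and Bcl2l11 (22.0 to 31.1). Bax (316.5 to 345.6) lay above Bad in every library, and Bcl2 (4.82 to 11.4) below Bcl2l11.

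**Figure D2:**
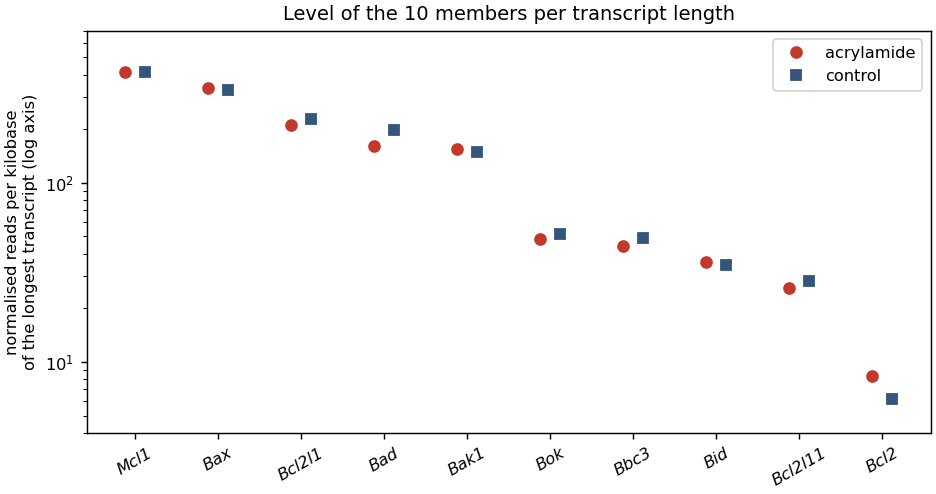
Normalised reads per kilobase of the longest transcript (vertical log axis) for the 10 members in acrylamide (circles) and control tissue (squares), ordered by the mean of the groups. The values run from 416.0 per kilobase for Mcl1 in control tissue to 6.15 for Bcl2 in control tissue, and the groups lie close together for each gene.

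Among the anti-apoptotic members, Bcl2 (chromosome 1 from 106538176 to 106714290, mm10) had the highest ratio of the 10. Its group value was 60.1 normalised reads in acrylamide and 44.2 in control tissue, a ratio of 1.36 with a counting interval of 1.11 to 1.65. The libraries, however, held 74.5, 39.5, 81.8 and 44.8 normalised reads in acrylamide tissue, against 55.8, 46.6, 34.7 and 39.5 in control tissue. Acrylamide libraries 1 and 3 stood above every control library, and acrylamide libraries 2 and 4 lay within the control range. The groups thus overlapped (60.2 ± 21.1 in acrylamide, 44.2 ± 9.21 in control, SD, n = 4 each), and the difference was not larger than the spread between libraries (exact two-sided permutation p = 0.257, adjusted p = 0.928).

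Bcl2l1 (chromosome 2 from 152758732 to 152833803), whose long product Bcl-xL blocks Bax and Bak1, had a group value of 539.8 normalised reads in acrylamide and 582.0 in control tissue. The ratio was 0.927, with a counting interval of 0.875 to 0.984. The group values carry no spread between mice, so this ratio was not tested. Mcl1 (chromosome 3 from 95656944 to 95663179), a short-lived protein that binds Bak1 and Bcl2l11, had 1410.86 normalised reads in acrylamide and 1421.73 in control tissue. Its ratio of 0.992 had a counting interval of 0.956 to 1.03 and was not tested either.

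The effectors had ratios between 0.940 and 1.05. Bax (chromosome 7 from 45461695 to 45466903), which moves from the cytosol to the mitochondrion when activated, had 353.8, 371.4, 374.7 and 380.2 normalised reads in the acrylamide libraries, against 379.2, 348.1, 375.1 and 353.2 in the control libraries. The 8 libraries lay within a narrow band, with 370.0 ± 11.4 in acrylamide and 363.9 ± 15.5 in control tissue (SD, n = 4 each). By limma on log2 values the difference was 0.02 with a standard error of 0.051 (adjusted p = 0.897), and the exact permutation p was 0.543 (two-sided). Bak1 (chromosome 17 from 27019812 to 27028627), which resides in the outer membrane, had 432.0, 334.6, 377.6 and 331.4 normalised reads in acrylamide libraries, against 346.9, 362.6, 382.6 and 318.2 in control libraries. Acrylamide library 1 was the highest of the 8 for this gene and the other libraries of both groups were mixed (exact two-sided permutation p = 0.629). Bok (chromosome 1 from 93685575 to 93695770), a relative of both that is less dependent on BH3-only proteins, had 51.2, 78.1, 73.0 and 82.9 normalised reads in acrylamide libraries, against 66.6, 77.7, 87.8 and 71.1 in control libraries. Here acrylamide library 1 was the lowest of the 8, and the groups overlapped (exact two-sided permutation p = 0.686).

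Of the 8 recovered members, Bad alone had groups that did not overlap. Bad (chromosome 19 from 6941861 to 6951905) binds Bcl2l1 and Bcl2 and is held inactive by phosphorylation and 14-3-3 proteins while survival signals last. It had 214.6, 243.6, 260.8 and 265.2 normalised reads in acrylamide libraries, against 275.3, 300.4, 326.3 and 296.8 in control libraries. Every acrylamide library was lower than every control library, with 246.1 ± 22.9 in acrylamide and 299.7 ± 20.9 in control tissue (SD, n = 4 each). The ratio of the group values was 0.821, with a counting interval of 0.754 to 0.893. Of the 4791 recovered genes with a mean of at least 10, 5.28% had groups that did not overlap in either direction. With acrylamide lower, 1.29% did so, against 1 in 8 recovered members. Bad, however, lies above the level up to which all genes were searched. Apart from members and list genes, this background therefore holds only genes of lower level than Bad. How often genes of Bad's own level have groups that do not overlap was not tested. The exact permutation p was 0.0286 (two-sided), the smallest that 4 against 4 libraries allow, and 0.725 after Benjamini-Hochberg adjustment over 9007 genes. A gene at this smallest p passes the adjustment only if a large share of the 9007 genes has it too, so the adjusted value cannot decide on Bad. By limma the log2 difference was -0.29 with a standard error of 0.081 and an adjusted p of 0.333, so the difference did not pass the correction. Without acrylamide library 1, or without control library 3, the exact permutation p was 0.0571, although the groups still did not overlap. In splits of 3 against 4 libraries, groups that do not overlap need not reach the smallest p. Exons of Bad overlap exons of Gpr137 on the opposite strand, and the sources used here do not give a stranded library, so reads of the pair cannot be told apart where they overlap. Gpr137 had 571.5 normalised reads in acrylamide and 548.7 in control tissue, a ratio of 1.04. Exons of Bak1 overlap those of Ggnbp1, of Bid those of Bcl2l13 and of Bcl2 those of an antisense gene, each on the opposite strand, and exons of Bax overlap those of Gm45808 on the same strand, so the same limit holds for these members.

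Bid, Bbc3 and Bcl2l11 had overlapping groups. Bid (chromosome 6 from 120893119 to 120917062) links death receptors to the mitochondrion once caspase-8 has cleaved it. It had 108.7, 46.9, 99.3 and 61.4 normalised reads in acrylamide libraries, against 117.6, 58.0, 61.8 and 66.6 in control libraries. Acrylamide libraries 1 and 3 and control library 1 stood near or above 100 and the remaining ones near 60, in both groups (exact two-sided permutation p = 0.971). Bbc3 (Puma, chromosome 7 from 16308398 to 16318334), a target of p53 that binds every anti-apoptotic member, had 120.3, 67.1, 80.8 and 54.6 normalised reads in acrylamide libraries, against 109.7, 78.7, 78.0 and 90.3 in control libraries. The highest library of each group again was library 1, and the groups overlapped (exact two-sided permutation p = 0.486). Bcl2l11 (Bim, chromosome 2 from 128126038 to 128162547), which responds to loss of survival factors through FoxO factors, had 154.5, 124.1, 110.9 and 126.7 normalised reads in acrylamide libraries, against 156.8, 145.0, 139.8 and 129.8 in control libraries. Apart from library 1, the acrylamide libraries lay below all of the control libraries, but with library 1 the groups overlapped (exact two-sided permutation p = 0.229, log2 difference by limma -0.15 with a standard error of 0.122 and an adjusted p of 0.692). Summed over the 4 genes, BH3-only members came to 598.1, 481.7, 551.8 and 507.9 normalised reads in acrylamide libraries, against 659.4, 582.3, 605.9 and 583.4 in control libraries. This sum, in which Bad has the largest share, is given as a description and was not tested.

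**Figure D3:**
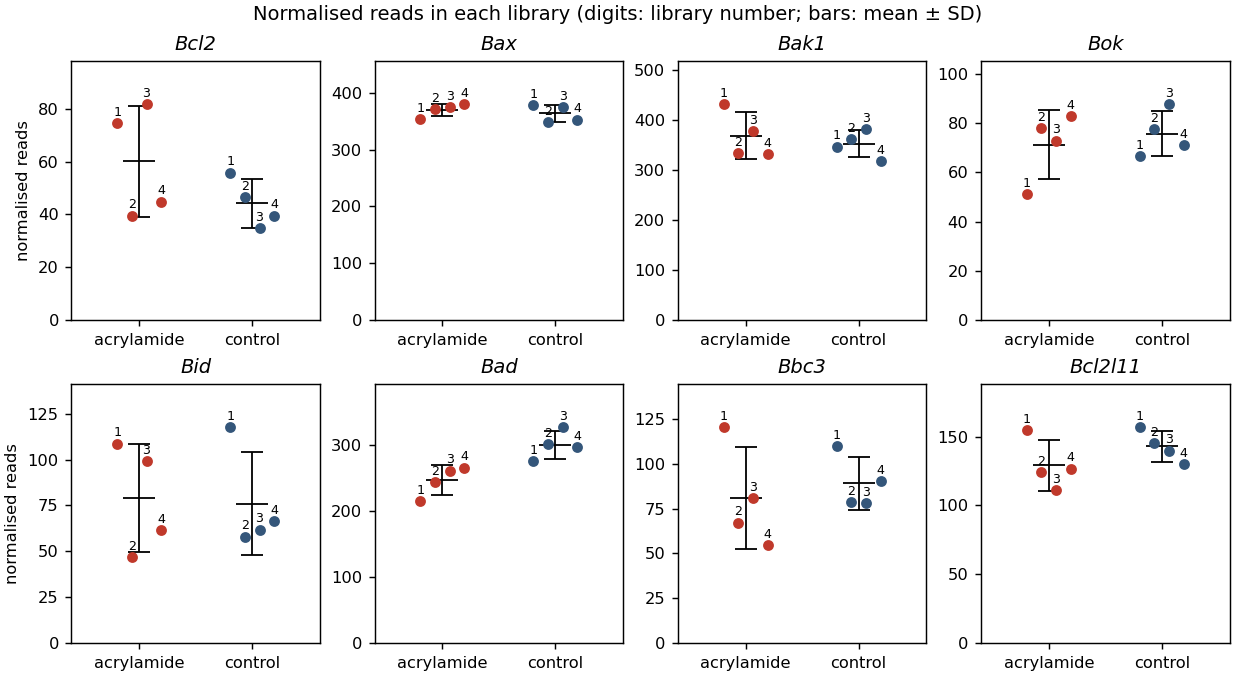
Normalised reads of the 8 recovered members (vertical axes, each starting at 0) in the 4 acrylamide and 4 control libraries. Digits number the libraries within a group and bars give the mean ± SD. Only in Bad do the groups stand apart, with acrylamide at 214.6 to 265.2 and control at 275.3 to 326.3.

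The libraries numbered 1, which have the largest size factor of their group (1.11 in acrylamide and 1.02 in control), recurred at the ends of these ranges. Both were among the 3 highest of the 8 libraries for Bcl2, Bid, Bbc3 and Bcl2l11, and each was the lowest of its group for Bok and Bad. Over the 2342 recovered genes in the range of levels from that of Bcl2 up, acrylamide library 1 was the highest of its group in 30.4% and control library 1 in 30.4%. Acrylamide library 1 also had the highest sum of the 8 libraries of the recovered T cell, endothelial, macrophage, fibroblast, basal epithelial and B cell markers. For T cells, of which 3 of 4 markers were recovered (Cd3d, Cd3e and Cd3g), the sum was 125.7, 36.8, 38.9 and 55.6 normalised reads in acrylamide libraries, against 51.0, 54.9, 44.4 and 72.2 in control libraries. The 4 endothelial markers Pecam1, Cdh5, Kdr and Tek came to 1008.50, 614.1, 676.4 and 687.3 normalised reads in acrylamide libraries, against 569.3, 583.3, 624.4 and 617.2 in control libraries. The 4 macrophage markers Cd68, Adgre1, Csf1r and Mrc1 came to 573.0, 460.6, 461.3 and 482.6 normalised reads in acrylamide libraries, against 425.2, 438.2, 370.7 and 406.2 in control libraries. The macrophage sum was thus higher in every acrylamide library than in every control library, and without acrylamide library 1 as well. For each of the 4 macrophage genes alone, however, the groups overlapped, and the sum was not tested. The part of these cells and of the size factor in the levels of the members was not tested. Without acrylamide library 1, the log2 difference of Bak1 was -0.019, that of Bok 0.046 and that of Bid -0.14, each opposite in sign to the value with all libraries, and none of the 3 was past the threshold with or without it.

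Spread within the groups differed between members as well. The SD of log2 values within groups was 0.52 for Bid, 0.42 for Bcl2 and 0.37 for Bbc3, against 0.16 for each of Bid and Bbc3 and 0.20 for Bcl2 from counting alone. Over the 2342 recovered genes in this range of levels the median SD was 0.23, with quartiles at 0.17 and 0.30, and 5.17% of them had a larger SD than Bid and 13.5% a larger one than Bbc3. Bok, at 0.25, and Bcl2l11, at 0.16, were within or below those quartiles. Bax, whose level is above this range, had an SD of 0.054, no larger than the 0.075 of counting alone. The ratio of Bax to Bcl2 reads, often read as a balance of pro- and anti-apoptotic members, was 4.75, 9.40, 4.58 and 8.48 in acrylamide libraries, against 6.79, 7.47, 10.8 and 8.94 in control libraries. The ratio overlapped between groups, and it was not tested, as it was chosen after the values had been seen.

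Set beside all genes of like level, 5 of the 10 members lay between the quartiles of the log2 ratio (Mcl1, Bax, Bak1, Bok and Bid) and 5 outside them. In genes with a mean between 178 and 316, 5% had a log2 ratio below -0.25, and Bad, at -0.28, lay below that bound. Bcl2, at 0.44, lay above the upper quartile of 0.33 and below the upper bound of 0.77 for genes with a mean between 31.6 and 56.2. Mcl1, at -0.01, Bax, at 0.02, and Bak1, at 0.07, lay between the quartiles of their levels. Bcl2l1, at -0.11, Bbc3, at -0.14, and Bcl2l11, at -0.15, lay below the lower quartile of their levels (-0.10, -0.11 and -0.10) and above the bound of the lowest 5%. The median log2 ratio of all genes was 0.12 in the class that holds Bcl2 and -0.01 in the class that holds Bad.

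**Figure D4:**
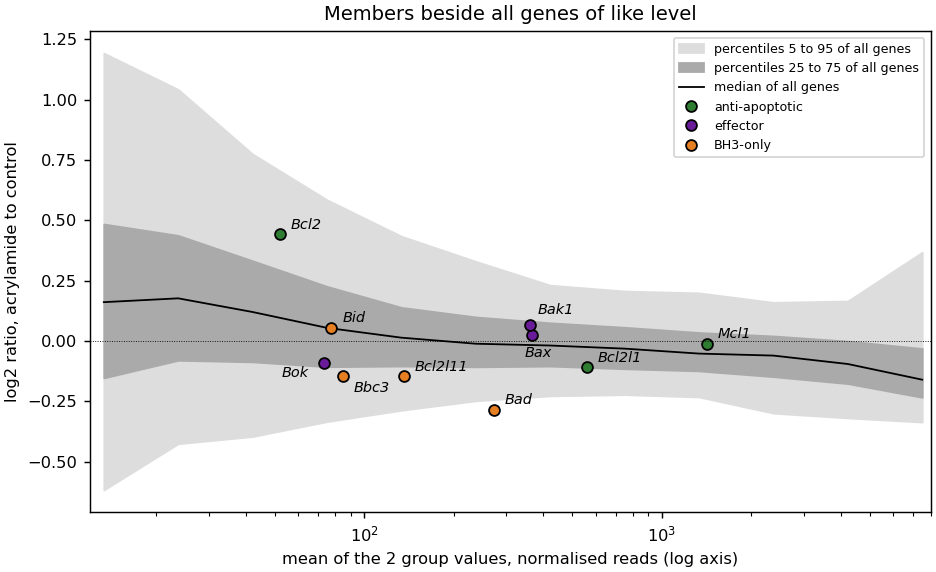
Log2 ratio of acrylamide to control (vertical axis) against the mean of the group values (horizontal log axis) for the 10 members, with the median (line), the quartiles (dark band) and percentiles 5 to 95 (light band) of all genes in classes of like level from 10 to 10000 normalised reads. Bad at -0.28 lies below the light band, Bcl2 at 0.44 lies above the dark band and inside the light one.

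The other genes of the family gave a similar picture. Of 16 further members and relatives, all were measured and 9 had a mean of at least 10, of which 1 was past a fold of 1.5 (background 5.08%). That gene was Bcl2a1b, an anti-apoptotic member (A1) of leukocytes, with 16.7 normalised reads in acrylamide and 8.74 in control tissue. Its reads were 37, 10, 10 and 15 in acrylamide libraries, against 3, 13, 12 and 5 in control libraries. Without acrylamide library 1 the ratio of the means was 1.28. Its near-identical copies had few reads too: Bcl2a1a had 21, 0, 9 and 9 reads in acrylamide libraries and 4, 6, 11 and 7 in control libraries, and Bcl2a1d had 13, 3, 3 and 3 in acrylamide libraries and 4, 2, 5 and 0 in control libraries. Reads of these copies may have been divided among them by the authors' counting, so their individual values are uncertain. Bcl2a1c had 2 reads in all, both in control libraries, which is below what could show a difference.

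Among the BH3-only relatives, Bmf, which is sequestered by dynein light chains until it is released, had 185.9 normalised reads in acrylamide and 219.6 in control tissue, a ratio of 0.846. Its libraries held 221.8, 152.6, 187.8 and 181.3 normalised reads in acrylamide tissue, against 229.3, 223.8, 224.4 and 200.9 in control tissue. All acrylamide libraries but library 1 lay below every control library, and with library 1 the groups overlapped (limma log2 difference -0.25, adjusted p = 0.446). Bik had 44.1 normalised reads in acrylamide and 39.9 in control tissue, and Pmaip1 (Noxa), a p53 target that binds Mcl1, 6.54 in acrylamide and 6.83 in control tissue. Hrk and Bcl2l10 each had 1 read in all libraries together. The anti-apoptotic Bcl2l2 (Bcl-w) was the most abundant of these relatives beside Bnip3l, with 1147.19 normalised reads in acrylamide and 1209.98 in control tissue, and Bnip3l, a receptor for the removal of mitochondria, had 1186.96 in acrylamide and 1271.37 in control tissue. Bcl2l14 had 352.5 normalised reads in acrylamide and 360.6 in control tissue, Bcl2l13 had 307.9 in acrylamide and 319.9 in control tissue, and Bnip3 had 206.9 in acrylamide and 205.5 in control tissue. Bcl2l12 had 51.2 normalised reads in acrylamide and 56.1 in control tissue, and Bcl2l15 had 7.34 in acrylamide and 8.99 in control tissue. The 9 genes with a mean of at least 10 had a median log2 ratio of -0.06.

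Among other genes of the mitochondrial pathway, 1 of 19 was past a fold of 1.5, close to the background of 5.08%, and the median log2 ratio was -0.02. That gene was Birc5 (survivin), an inhibitor of apoptosis protein that also acts in mitosis, at a ratio of 2.81. It had 97.9, 17.5, 58.4 and 31.2 normalised reads in acrylamide libraries, against 27.4, 16.6, 14.1 and 14.7 in control libraries. Acrylamide libraries 1, 3 and 4 were above all of the control libraries and acrylamide library 2 was not (limma log2 difference 1.22, standard error 0.435, adjusted p = 0.380). Without acrylamide library 1 the ratio of the means was 1.96. Apaf1, the scaffold of the apoptosome, had 73.2 normalised reads in acrylamide and 61.1 in control tissue. The executioner caspase Casp6 had the lowest ratio, with 228.2 in acrylamide and 291.8 in control tissue (0.782). Vdac1 and Vdac2, channels of the outer membrane and the most abundant genes of this list, had ratios of 0.901 and 0.912.

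None of the 9 death receptor genes with a mean of at least 10 was past a fold of 1.5 (background 5.08%), and their median log2 ratio was -0.02. Fas, the receptor whose ligand is Fasl, had the lowest ratio of the list, 0.767, with 170.6, 85.5, 96.4 and 118.0 normalised reads in acrylamide libraries, against 122.5, 187.5, 161.5 and 142.2 in control libraries. Acrylamide library 1 was again apart from the other 3, which lay below every control library (limma log2 difference -0.41, standard error 0.199, adjusted p = 0.489). Without acrylamide library 1 the ratio of the means was 0.651, but the share of all genes past the fold without that library was not counted. Tradd followed with a ratio of 0.899. Tnfsf10 (Trail) and its receptor Tnfrsf10b, at 1.23 each, had the highest ratios. The most abundant genes of this list were Tnfrsf1a, with 580.5 normalised reads in acrylamide and 587.6 in control tissue, and Cflar, a decoy of Casp8, with 481.2 in acrylamide and 473.4 in control tissue.

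Among transcription factors and other regulators of the members, 2 of 11 genes were past a fold of 1.5, both higher in acrylamide (4.15% of all 13002 genes), and the median log2 ratio was 0.11 as deposited. Cdkn1a (p21), a cell cycle inhibitor and p53 target, had 75.4, 130.5, 55.5 and 84.8 normalised reads in acrylamide libraries, against 49.0, 41.4, 54.2 and 59.8 in control libraries. The ratio of its group values was 1.70, and only acrylamide library 3 lay within the control range (limma log2 difference 0.69, standard error 0.235, adjusted p = 0.353). E2f1, a cell cycle factor that can activate Bbc3 and Bcl2l11, had 42.2, 20.2, 36.0 and 36.1 normalised reads in acrylamide libraries, against 22.5, 22.8, 19.5 and 19.2 in control libraries. Acrylamide library 2 lay within the control range and the other 3 above it, and without acrylamide library 1 the ratio of the means was 1.46. Trp53 itself had 365.0 normalised reads in acrylamide and 365.5 in control tissue. Atf4, which drives stress targets, was the most abundant of this list, with 3600.42 normalised reads in acrylamide and 3882.39 in control tissue, followed by Stat3 with 696.4 in acrylamide and 638.6 in control tissue.

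Binding partners and turnover factors of the members had no gene past a fold of 1.5 among 19 (background 5.08%), with a median log2 ratio of -0.05. Sfn (14-3-3 sigma), a p53 target that can bind phosphorylated Bad, had the highest ratio, 1.38, with 223.6, 437.6, 325.1 and 285.6 normalised reads in acrylamide libraries, against 279.2, 181.3, 261.2 and 202.0 in control libraries. Acrylamide library 1 lay within the control range and the other 3 above it (limma log2 difference 0.44, standard error 0.181, adjusted p = 0.430). Without acrylamide library 1 the ratio of the means was 1.51, again with no share of all genes to set beside it. Gsk3b, a kinase that marks Mcl1 for destruction, followed at a ratio of 1.15. The lowest ratios were those of Dynll1, a dynein light chain that holds Bcl2l11, at 0.883, and the chaperone partner Bag1, at 0.919. The most abundant genes were Tmbim6 (Bax inhibitor 1), with 9053.28 normalised reads in acrylamide and 9696.05 in control tissue, and Ywhae, another 14-3-3 protein, with 4906.70 in acrylamide and 5301.89 in control tissue.

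**Figure D5:**
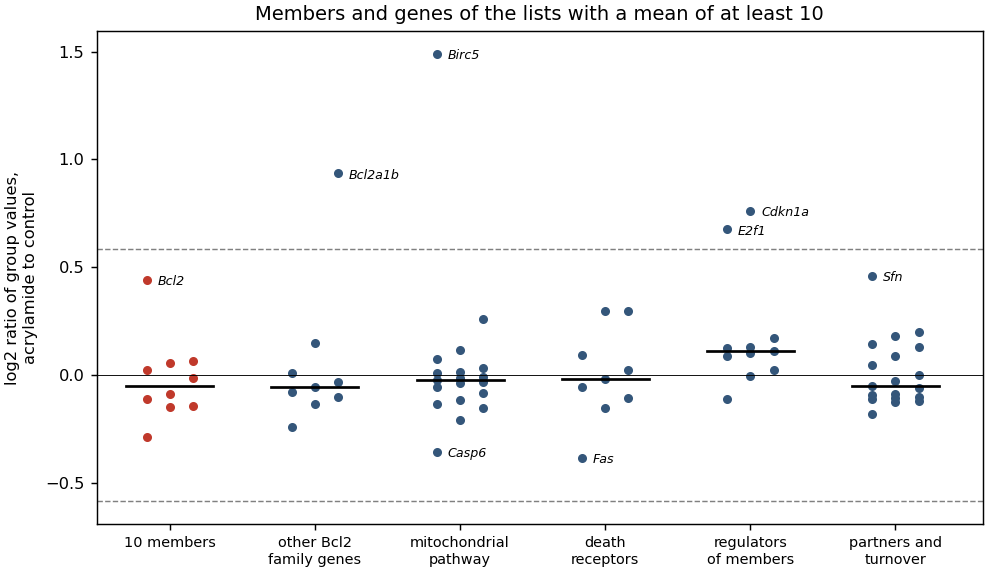
Log2 ratio of the group values of acrylamide to control (vertical axis) for the 10 members and for the genes of each list with a mean of at least 10, with black bars at the medians, dashed lines at a fold of 1.5 and the names of the genes farthest from 0. Outside the dashed lines stand Birc5 at 1.49, Bcl2a1b at 0.94, Cdkn1a at 0.76 and E2f1 at 0.68, none of them a member.

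Across all tests of reads per library, no gene passed the correction. For the permutation test this says little, because its smallest p of 0.0286 passes the adjustment only if a large share of all genes has it. In limma 0 of 4791 recovered genes with a mean of at least 10 had an adjusted p of at most 0.05, with 509 (10.6%) at an unadjusted p under 0.05. Bad was the only member among the latter, at an unadjusted p of 0.00393 by limma. In the exact permutation test 355 of 9007 genes (3.94%) had a p under 0.05, and of the 49 recovered members and list genes only Bad did.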

How the data were processed

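Poly(A) RNA of seminal vesicles from 4 acrylamide and 4 control mice was sequenced, and 1 gene table was used. According to the methods of the study, the authors used SOAPnuke to filter the reads, Hisat2 to map them (mm10), StringTie, Cuffcompare and CPC to add predicted genes, RSEM to count and DESeq2 to normalise. The deposited signal columns hold 1 fitted value per gene and group in size-factor normalised reads, not divided by length. Other columns of the table, with the authors' fold changes, p-values and adjusted p-values, were not used.

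The mean of both group values equals the mean over 8 libraries of whole reads divided by a size factor. Size factors were found from genes with 1 read, and the group of each library from which labelled group column was higher in those genes. Whole reads were then searched per gene by lattice reduction, and candidates were kept whose fitted group ratio, from a negative binomial model with shrunken dispersion, equals the ratio of the group values, at a posterior of at least 0.99. The search covered 9290 genes, all of those with at most 1100 normalised reads in sum and members and list genes with a mean up to 400, and resolved 9007 of them. Tested on simulated data, the search resolved 298 of 300 genes with a mean under 19 and 189 of 200 from 19 to 60. It resolved 190 of 200 from 60 to 137.5 and 53 of 60 from 137.5 to 400. Reads of all libraries were true for 298 of 298, 189 of 189, 189 of 190 and 53 of 53 resolved genes, in that order. How often the search errs in genes that depart from its model was not tested.

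Libraries were compared by exact two-sided permutation of mean log2(normalised reads + 1) over 70 splits, with Benjamini-Hochberg adjustment over all recovered genes, and by limma 3.58.1 (R 4.3.3, with a trend of variance on level) over those with a mean of at least 10. The limma test was chosen after the data had been seen. In simulated reads of these 4791 genes it called 10 of 50 genes with a fold of 2 and 1 of 50 with a fold of 1.5, and none that was unchanged. Of lowered genes it called 14 of 50 with a fold of 0.5 and 1 of 50 with a fold of 0.667. Libraries are taken as separate mice from the labels. Counting intervals are 95% Clopper-Pearson intervals on reads per group, which cover counting error only. Depth limits their width, and PCR reads are not independent molecules. Transcript lengths came from GENCODE M21 and positions from RefSeq on GRCm38 (mm10).

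The members, the lists and the tests were chosen with earlier results of these data known. All members and relatives are named or counted, and of each other list the 2 highest and 2 lowest ratios and the 2 highest levels past the level filter (mean of at least 10), and any gene past a fold of 1.5, the fold used in the study. Alternatives were other scalings, pseudocounts, folds, level filters and lengths, and each library left out. The recovery ran in numba 0.67.0, the permutation test in numpy 2.4.6 and the intervals in scipy 1.17.1 (Python 3.11.15), and pandas 2.3.3 and matplotlib 3.10.9 served for tables and plots. Protein sequences were not analysed here, and single values of some list genes are not reported here.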

Additional observations from a re-analysis of the deposited data

Results flagged for a closer look

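In 52 recovered members, list genes and markers with a mean of at least 10, or 104 groups of 4 libraries, 8 groups had a library whose gap to the next exceeded Dixon's critical value for the group's range. By chance about 1 in 20 groups would. The only member was Bid, with 117.6 normalised reads in control library 1 and 66.6 in the next control library. Acrylamide library 1 was the highest of its group for the endothelial gene Cdh5, with 263.1 normalised reads, and for Csf1r, the receptor of macrophage growth factor, with 278.4, and the lowest for Bcl2l12, with 40.4, and for Fbxw7, a ubiquitin ligase subunit of Mcl1, with 134.7. Cdh5 also had a high library among the controls, library 4 with 173.8 normalised reads. Acrylamide library 3 was the highest of its group for Trp53, with 397.1 normalised reads, and for the fibroblast gene Lum, with 148.9.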

How the results depend on the processing

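The median log2 ratio of the 10 members, -0.05 as deposited, was 0.12 with the groups scaled to the total of all genes, by the construction of that scaling. It was 0.0076 with the total without Svs genes, and -0.027 with the median ratio of genes with a mean of at least 100. With pseudocounts of 1 and 10 it was -0.050 and -0.045. The count of members past a fold of 1.5 was 1 with the total of all genes (Bcl2, at a ratio of 1.53) and 0 with the other scalings and at a fold of 2, and Bcl2 alone was past the lower fold tried, as were 15.6% of the 13002 genes. Past the fold were 11.8% of genes with a mean of at least 1, 2.18% at 50, 1.39% at 100, 2.14% between the lowest and the highest member, and 8.7% with the total of all genes. Of the 10 places in the order of levels, 4 were the same without division by length and 8 with the median transcript length, and Mcl1 stayed first and Bcl2 last in both. The count of members and list genes with a permutation p under 0.05, 1 with all libraries (Bad), was 0 to 4 over the leave-one-out fits. It was 1 without acrylamide library 1 (Bmf in place of Bad), 4 without acrylamide library 2 (Bad, Birc5, Foxo1 and E2f1), 3 without acrylamide library 3 (Bad, Tnfrsf10b and Cdkn1a), 2 without acrylamide library 4 (Bad and Diablo) and 0 without control library 3. The other pseudocounts and the linear scale left Bad as the sole gene. The groups of Bad did not overlap in any leave-one-out fit, so its absence from these counts is not a loss of that separation. The log2 difference changed sign when a library was left out for Bak1 (-0.019 to 0.11), Bok (-0.18 to 0.046) and Bid (-0.14 to 0.26), and kept its sign for Bad (-0.33 to -0.22), Bcl2 (0.22 to 0.57), Bax (0.0036 to 0.05), Bbc3 (-0.40 to -0.03) and Bcl2l11 (-0.24 to -0.08). Why these values move was not tested. In limma no member or list gene had an adjusted p of at most 0.05 with all libraries, with the other pseudocounts or without any 1 library. No paired analysis was possible because the recovered libraries cannot be matched to the replicate numbers of the labels.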
